A study of Mus musculus with 14 samples.

Results

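Apolipoproteins are the protein components of lipoproteins, the particles in which triacylglycerol and cholesterol travel through the blood, and the liver secretes most of them. The genes described here were the 10 rows of the count table with the symbols *Apoa1*, *Apoa2*, *Apoa4*, *Apoa5*, *Apob*, *Apoc1*, *Apoc2*, *Apoc3*, *Apoe* and *Apom*, out of 55487 genes in the table. All 10 were found, and 9 of them were among the 12653 genes that passed the filter on low counts. *Apoc2* did not pass.

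The libraries were strand-specific polyA RNA-seq of the right liver lobe of 14 male TALLYHO/JnG mice, a polygenic strain that develops type 2 diabetes, and there was 1 library per mouse. The mice received 20 mg/kg indole (7 mice) or water as vehicle (7 mice) by oral gavage, 2 doses per day over 7 days. Indole is a compound that gut bacteria make from tryptophan. The mice were 8 to 12 weeks old by the methods. Both groups went through tests of glucose or insulin tolerance, with further doses between them, before the liver was taken. The libraries held between 15197498 and 21060376 reads counted to genes, with 16517 to 17901 genes detected. Summed markers of hepatocytes reached between 68391 and 105567 CPM (counts per 1000000 reads, TMM-scaled), and those of adipocytes no more than 0.135 CPM. Of 8 small intestine markers, *Alpi*, *Sis*, *Cdh17* and *Cdx2* were listed at 0 in all 14 mice, and the 8 summed to between 42.7 and 74.1 CPM. Indole-treated mouse G5 had the highest red blood cell markers (summed 1092 CPM), with indole-treated mouse G14 close behind (1046 CPM). Indole-treated mouse G8 had the highest macrophage markers (summed 493 CPM).

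Lipoproteins differ by the scaffold protein around which they form. Apolipoprotein B carries very low density lipoprotein (VLDL) out of the liver, with 1 molecule staying on each particle for life. Apolipoproteins A-I and A-II build high density lipoprotein (HDL). The smaller exchangeable members move between particles, where apolipoprotein E is a ligand for clearance receptors and the C apolipoproteins and A-V tune lipoprotein lipase, the enzyme that empties the particles of triacylglycerol. In the mouse, *Apoa1*, *Apoc3*, *Apoa4* and *Apoa5* lie in a cluster on chromosome 9, and *Apoe*, *Apoc1* and *Apoc2* lie in another on chromosome 7.

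No apolipoprotein gene passed the test between indole- and vehicle-treated livers. Of the 9 members tested, 0 had an adjusted *p* below 0.05, 0 had an unadjusted *p* below 0.05, and 0 had groups of mice that did not overlap (edgeR quasi-likelihood test with Benjamini-Hochberg adjustment over all genes tested). Over all 12653 genes, 0% were called at an adjusted *p* below 0.05, 3.81% had an unadjusted *p* below 0.05 (482 genes) and 0.0474% had groups that did not overlap (6 genes). DESeq2 on the same genes called 1 gene at an adjusted *p* below 0.05, which was not a member (*Cyp2c29*). Of the members, 5 were estimated higher with indole and 4 lower. Their median log2 fold change was 0.025, beside 0.0042 over all genes tested. Every 95% interval lay between −0.25 and 0.38 on the log2 scale, that is between 0.844-fold and 1.30-fold. In bulk liver, fewer cells of a type and less RNA per cell cannot be told apart.

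**Figure D1:**
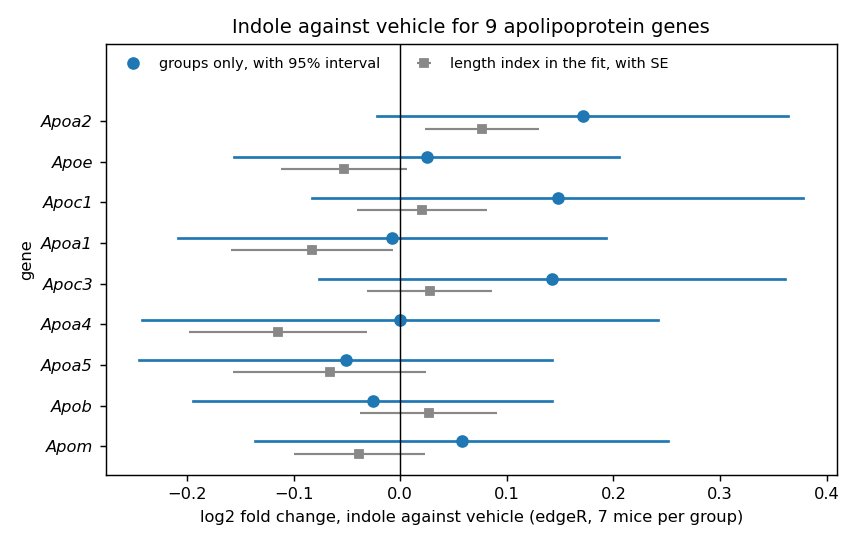
Log2 fold change of 9 apolipoprotein genes, indole against vehicle, 7 mice per group. Blue points are the edgeR estimates with their 95% intervals, which all include 0; grey squares are the estimates with the length index of each mouse in the fit, with their SE.

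Several of these transcripts were among the most abundant in the liver. Together the 10 genes took 4.60% to 5.48% of all counted reads in a mouse, with a mean of 4.94±0.297% (SD, *n*=7) in vehicle-treated and 5.03±0.322% (*n*=7) in indole-treated mice (exact two-sided permutation test, *p*=0.603). Levels of different genes were compared per length, as CPM divided by gene length in kb (FPKM). This length counts every base in any annotated exon of the gene, so it can exceed that of the transcript made. *Apoa2* was the highest at a mean of 12661 FPKM over the 14 mice, followed by *Apoe* at 11497 FPKM. *Apoc1* (5637 FPKM), *Apoa1* (4100 FPKM) and *Apoc3* (2329 FPKM) came next. *Apoa4* (619 FPKM) and *Apoa5* (576 FPKM) lay about an order of magnitude below *Apoc1*, and *Apob* (299 FPKM) and *Apom* (286 FPKM) lay lower still. Among 21923 protein-coding nuclear genes, *Apoa2* ranked 2, *Apoe* 3, *Apoc1* 4 and *Apoa1* 8 by mean FPKM.

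The order held mouse by mouse for most neighbours in it. *Apoe* exceeded *Apoc1*, *Apoc1* exceeded *Apoa1*, *Apoa1* exceeded *Apoc3*, *Apoc3* exceeded *Apoa4*, and *Apoa5* exceeded *Apob* in 14 of 14 mice. *Apoa2* exceeded *Apoe* in 13 of 14 mice. *Apoa4* exceeded *Apoa5* in only 9 of 14 mice and *Apob* exceeded *Apom* in 10 of 14, so the order within these pairs was not fixed between mice. These counts used the same length of a gene in every mouse. Whether close pairs, *Apoa2* and *Apoe* included, keep their order with transcript lengths was not tested. As counted, *Apoc2*, at a mean of 0.22 FPKM, was below every other member in every mouse and ranked 10902 of the protein-coding genes. That value divides by its full length, most of which is shared with another gene, as described below.

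**Figure D2:**
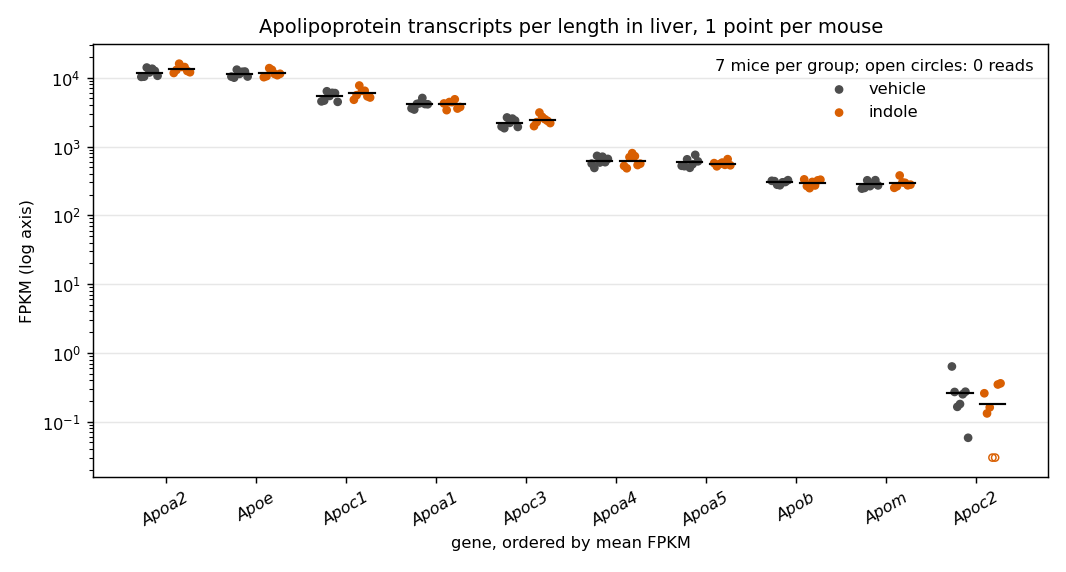
Level of each apolipoprotein gene in FPKM on a log axis, with 1 point per mouse (grey vehicle, orange indole) and a bar at the group mean. The 2 groups of 7 overlap for every gene, and *Apoc2* sits orders of magnitude below the other 9, with 2 indole-treated mice at 0 reads (open circles).

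*Apoc2* encodes the cofactor that lipoprotein lipase needs, and it was almost absent from the table. The vehicle-treated mice had 10, 4, 2, 3, 3, 4 and 1 reads for it (G1, G4, G6, G9, G10, G11 and G13), and the indole-treated mice had 4, 2, 2, 0, 0, 5 and 5 reads (G2, G3, G5, G7, G8, G12 and G14). The 45 reads were too few for a comparison, since most mice lay at or near the floor of 3 reads, and no fold is given. Its neighbours on the same strand were abundant: *Apoc4* lay 142 bases away and averaged 559±82.2 CPM in vehicle-treated and 622±97.5 CPM in indole-treated mice (*n*=7 each).

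The annotation of *Apoc2* (ENSMUSG00000002992, chromosome 7, 19671579 to 19677941, minus strand, GRCm38) sets it apart from the other members. In the GENCODE M21 annotation of that build, 646 of its 813 exon bases (79.5%) also belong to exons of *Gm44805*, a protein-coding gene on the same strand whose transcripts are tagged as readthrough, with a first exon inside *Apoc4* and the rest in *Apoc2*. Only 167 bases were its own. *Gm44805* held 9 reads over the 14 mice, between 0 and 3 per mouse. The other 9 members shared 0 exon bases with another gene on their strand, and *Apoc4* shared 119 of 2537 (4.69%). A coding exon is shown because it is the same 151 bases in both genes, with capitals marking every base that the 2 annotations share (GRCm38, minus strand, chr7:19673229-19673379).
Apoc2 exon 4: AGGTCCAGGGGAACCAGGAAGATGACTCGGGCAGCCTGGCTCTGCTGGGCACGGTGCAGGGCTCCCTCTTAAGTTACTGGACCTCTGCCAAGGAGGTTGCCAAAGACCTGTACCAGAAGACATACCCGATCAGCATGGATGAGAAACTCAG

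A read inside this exon matches both genes. The sources used here do not name the counting tool or its rule for reads that fall in 2 genes, and the part of the shared exons in the low count of *Apoc2* was not tested. Across the table, 10 of 286 protein-coding genes (3.50%) with at least 75% of exon bases shared on their strand had a median of 10 or more reads per mouse, whereas 10985 of 20733 (53.0%) did among those with less than 5% shared. 

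**Figure D3:**
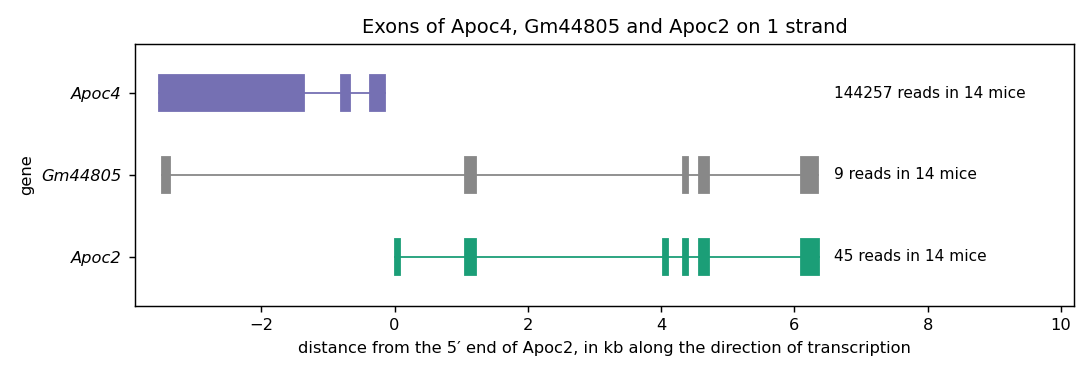
Exons (boxes) of *Apoc4*, *Gm44805* and *Apoc2*, drawn as the distance in kb from the 5′ end of *Apoc2* along the direction of transcription, with the reads each gene held in 14 mice. *Gm44805* (9 reads) has 1 exon inside *Apoc4* and 4 that lie on exons of *Apoc2* (45 reads).

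Among the HDL scaffolds, *Apoa2* came nearest to a difference and *Apoa1* was level. *Apoa2* (ENSMUSG00000005681, chromosome 1, 171225054 to 171226379, plus strand) ranged from 5522 CPM in G1 through a median of 6397 CPM to 7551 CPM in G6 among vehicle-treated mice, and from 6295 CPM in G2 through 6969 CPM to 8595 CPM in G5 among indole-treated mice. The groups overlapped, with 6 of 7 indole-treated mice above the vehicle median. Its log2 fold change was 0.17±0.093 (SE), with a 95% interval of −0.022 to 0.36, an unadjusted *p* of 0.0791 and an adjusted *p* of 0.998 by edgeR. An exact permutation test of its log2 CPM gave *p*=0.0868. Leaving out each mouse in turn gave a log2 fold change between 0.12 (without G5) and 0.22 (without G6). The unadjusted edgeR *p* was 0.195 without G5, 0.0333 without G6 and 0.0394 without G2, and it stayed above 0.05 when any other mouse was left out.

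*Apoa1* (ENSMUSG00000032083, chromosome 9, 46228580 to 46230466, plus strand) encodes the main protein of HDL and the activator of the cholesterol-esterifying enzyme LCAT. Its vehicle-treated mice ran from 4263 CPM (G4) through a median of 5119 CPM to 6273 CPM (G10), and its indole-treated mice from 4175 CPM (G3) through 5223 CPM to 6003 CPM (G8). Both groups covered nearly the same range, with a log2 fold change of −0.0078±0.096, with a 95% interval of −0.21 to 0.19 (edgeR, adjusted *p*=0.998). The sign turned to positive when G3 (0.035), G9 (0.0017), G10 (0.053), G12 (0.026) or G14 (0.015) was left out.

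*Apob* (ENSMUSG00000020609, chromosome 12, 7977648 to 8016835, plus strand) encodes the VLDL scaffold. At 13934 exon bases it was by far the longest gene of the set by that measure. Its values ran from 3807 CPM (G9) through 4242 CPM to 4513 CPM (G13) in vehicle-treated and from 3456 CPM (G5) through 4255 CPM to 4639 CPM (G2) in indole-treated mice. Its medians nearly coincided, and the indole-treated group was the wider. Its coefficient of variation over the 14 mice, 8.97%, was the smallest of the 9. The log2 fold change was −0.026±0.081, with a 95% interval of −0.19 to 0.14 (edgeR, adjusted *p*=0.998).

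*Apoe* (ENSMUSG00000002985, chromosome 7, 19696109 to 19699188, minus strand) held between 360675 and 497536 reads per mouse, the most of any member. It ranged from 21420 CPM (G4) through 24292 CPM to 28007 CPM (G6) in vehicle-treated and from 21784 CPM (G2) through 24268 CPM to 29465 CPM (G5) in indole-treated mice. The medians differed by far less than the spread within a group. Its log2 fold change was 0.025±0.087, with a 95% interval of −0.16 to 0.21 (edgeR, adjusted *p*=0.998).

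Of the lipase regulators, *Apoc1* and *Apoc3* had estimates close to that of *Apoa2*, and both estimates were 0.074 without G5. *Apoc1* (ENSMUSG00000040564, chromosome 7, 19689481 to 19692660, minus strand), whose product hinders both receptor binding and lipases, ran from 3319 CPM (G13) through 4041 CPM to 4729 CPM (G6) in vehicle-treated and from 3559 CPM (G2) through 4149 CPM to 5730 CPM (G5) in indole-treated mice. The indole-treated mice G5, G7 and G8 lay above every vehicle-treated mouse, and the rest overlapped. The log2 fold change came to 0.15±0.11 (95% interval −0.082 to 0.38, unadjusted *p*=0.196 and adjusted *p*=0.998 by edgeR).

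*Apoc3* (ENSMUSG00000032081, chromosome 9, 46232933 to 46235636, minus strand) encodes an inhibitor of lipoprotein lipase and of particle clearance. It ran from 1872 CPM (G4) through 2238 CPM to 2681 CPM (G6) in vehicle-treated and from 2006 CPM (G2) through 2393 CPM to 3162 CPM (G5) in indole-treated mice. G5 and G7 lay above the vehicle range. The estimate was 0.14±0.10 on the log2 scale (95% interval −0.076 to 0.36, unadjusted *p*=0.190 and adjusted *p*=0.998 by edgeR).

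*Apoa5* (ENSMUSG00000032079, chromosome 9, 46268633 to 46271919, plus strand) encodes a liver-made activator of lipase-mediated clearance. It ran from 1237 CPM (G9) through 1393 CPM to 1906 CPM (G11) in vehicle-treated and from 1299 CPM (G3) through 1401 CPM to 1653 CPM (G12) in indole-treated mice. The highest value belonged to a single vehicle-treated mouse, G11. Its log2 fold change of −0.051±0.093 (95% interval −0.25 to 0.14, edgeR adjusted *p*=0.998) became 0.022 without G11.

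*Apoa4* (ENSMUSG00000032080, chromosome 9, 46240696 to 46243459, plus strand), which is made by intestine and liver and rises with hepatic fat in mice, was the most variable of the 9 on the log2 scale. It ran from 886 CPM (G4) through 1074 CPM to 1328 CPM (G6) in vehicle-treated and from 876 CPM (G3) through 1022 CPM to 1453 CPM (G7) in indole-treated mice. The indole-treated group was the wider at both ends. The log2 fold change was −0.00018±0.12, with a 95% interval of −0.24 to 0.24 (edgeR, unadjusted *p*=0.999), and its sign depended on the scaling. Over the 14 mice, the genes whose log2 CPM followed *Apoa4* most closely were *Glmp* (Pearson *r*=0.942), *Rab1b* (*r*=0.914), *Vcp-rs* (*r*=0.893), *Tmbim4* (*r*=0.890) and *H13* (*r*=0.883).

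*Apom* (ENSMUSG00000024391, chromosome 17, 35128997 to 35132050, minus strand), the HDL carrier of sphingosine-1-phosphate, was the lowest of the tested members in CPM. It ran from 247 CPM (G1) through 275 CPM to 328 CPM (G11) in vehicle-treated and from 254 CPM (G2) through 283 CPM to 384 CPM (G5) in indole-treated mice. All indole-treated mice except G5 lay within the vehicle range. For *Apom* the log2 fold change was 0.058±0.093 (95% interval −0.14 to 0.25, edgeR adjusted *p*=0.998), and −0.016 without G5.

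Ratios between members within a mouse do not depend on the scaling factor, and 5 were compared. The read ratio of *Apoa2* to *Apoa1* was 1.13 to 1.47 (median 1.24) in vehicle-treated and 1.21 to 1.67 (median 1.41) in indole-treated mice. The group means were 1.26±0.115 and 1.44±0.164 (*n*=7 each, exact two-sided permutation test *p*=0.0431, 0.138 after adjustment over the 5 ratios), so the difference of 0.18 on the log2 scale did not pass the adjustment. Its unadjusted exact permutation *p* lay between 0.0152 and 0.0851 when each mouse was left out in turn. The ratio of *Apoc1* to *Apoe* was 0.163±0.00897 and 0.177±0.0154 (exact permutation *p*=0.0554, adjusted *p*=0.138). The ratio of *Apoc3* to *Apoa1* was 0.443±0.0442 and 0.494±0.0707 (exact permutation *p*=0.147, adjusted *p*=0.246). The ratio of the HDL to the VLDL scaffold, *Apoa1* to *Apob*, was 1.22±0.194 and 1.24±0.254 (exact permutation *p*=0.875, adjusted *p*=0.977), and that of *Apoa4* to *Apoa1* was 0.221±0.0207 and 0.222±0.0254 (exact permutation *p*=0.977, adjusted *p*=0.977).

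Most of the tested members varied together from mouse to mouse, except *Apob*, which ran against most others, and *Apoa5*, which followed none closely. Most levels also moved with the balance between long and short genes in the library. That balance was summarised for each mouse, after the values had been seen, as a length index: the median log2 deviation of 2922 genes of at least 5000 bases minus that of 268 genes under 1000 bases, all at a mean of 10 CPM or more and with the members left out. The index ran from −0.498 in G5 to 0.307 in G4. It was 0.066±0.20 in vehicle-treated and −0.060±0.23 in indole-treated mice (exact two-sided permutation test, *p*=0.307).

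*Apoa2*, *Apoc3* and *Apoc1* followed the index most closely, and *Apob*, the longest member, ran the other way. Over the 14 mice, the log2 CPM of *Apoa2* (537 bases) had *r*=−0.946 and Spearman rho=−0.934 with the index, *Apoc1* (744 bases) *r*=−0.936 and rho=−0.938, and *Apoc3* (1014 bases) *r*=−0.940 and rho=−0.943. For each *r* of these 3 the permutation *p* was 1e-05, the smallest that 100000 permutations can give, and the adjusted *p* over 9 genes was 3e-05; those of rho were 3e-05, 2e-05 and 1e-05 in the same order. Without the 2 mice whose index lay farthest from the median of the 14 (G5 and G6), *r* was −0.933, −0.891 and −0.895. Within groups it was −0.965 and −0.971 for *Apoa2*, −0.881 and −0.968 for *Apoc1*, and −0.953 and −0.923 for *Apoc3* (vehicle and indole).

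The other members followed it less closely, and not in order of length. *Apom* (1013 bases) had *r*=−0.858 (rho=−0.785), *Apoe* (2138 bases) *r*=−0.857 (rho=−0.811), *Apoa4* (1815 bases) *r*=−0.737 (rho=−0.648) and *Apoa1* (1236 bases) *r*=−0.664 (rho=−0.666), with permutation *p* of 0.00015, 9e-05, 0.00215 and 0.00965 for *r* and 0.00144, 0.00070, 0.0143 and 0.0115 for rho, all below 0.05 after adjustment. *Apoa5* showed no detectable relation (*r*=−0.124, permutation *p*=0.668, and rho=−0.240, permutation *p*=0.408). *Apob* had *r*=0.712 (permutation *p*=0.00379) and rho=0.741 (permutation *p*=0.00333), and *r* fell to 0.470 without G5 and G6. As background, the 1315 genes with a mean of at least 100 CPM, members included, were ranked by their *r*. Of these, 1.60% had a lower *r* than *Apoa2*, and 96.0% had a lower *r* than *Apob*. The share was 11.5% for *Apom*, 11.8% for *Apoe*, 22.2% for *Apoa4* and 29.0% for *Apoa1*. A relation as strong as those of *Apoa4* and *Apoa1* was therefore common among abundant genes.

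**Figure D4:**
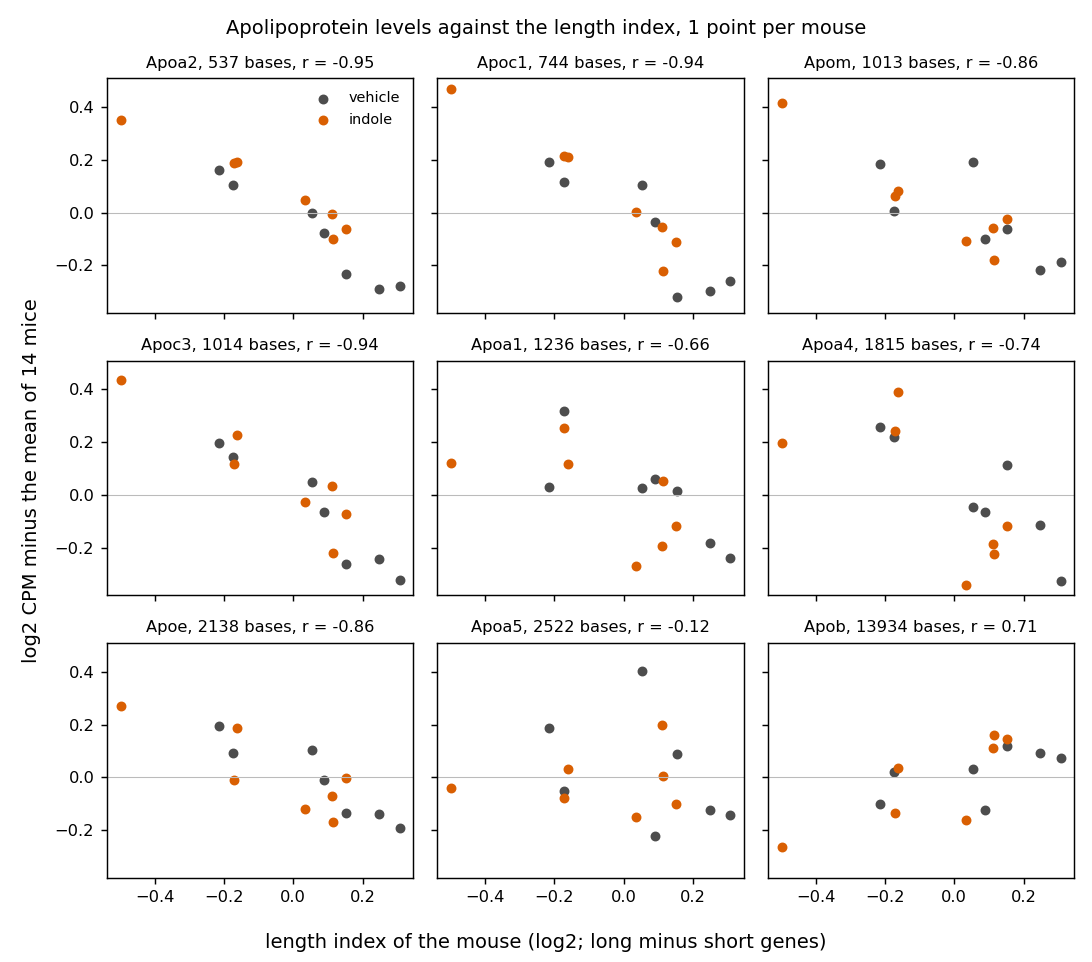
Log2 CPM of each of 9 members minus its mean over 14 mice (vertical) against the length index of the mouse (horizontal, log2). Panels are ordered by gene length in exon bases, with 1 point per mouse (grey vehicle, orange indole). The slope is downward from *Apoa2* (*r*=−0.95) through *Apoe* (*r*=−0.86), absent in *Apoa5* (*r*=−0.12) and upward in *Apob* (*r*=0.71).

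The treatment estimates of other abundant genes were ordered by length. Among genes other than members with a mean of at least 100 CPM, the median log2 fold change with indole was 0.11 for 62 genes under 1000 bases (90.3% of them higher), 0.067 for 211 genes of 1000 to under 2000 bases (82.0% higher), 0.023 for 654 genes of 2000 to under 5000 bases (60.9% higher) and −0.017 for 379 genes of at least 5000 bases (40.6% higher). With the index as a term in the edgeR fit, the log2 fold change of *Apoa2* was 0.076±0.053 (unadjusted *p*=0.170) in place of 0.17. Those of *Apoc1* and *Apoc3* were 0.020±0.061 and 0.028±0.059 (unadjusted *p*=0.742 and 0.643) in place of 0.15 and 0.14. The estimates of *Apoe* and *Apom* became negative (−0.053 and −0.038) and that of *Apob* positive (0.027). Those of *Apoa4*, *Apoa1* and *Apoa5* became more negative, at −0.11±0.083, −0.083±0.076 and −0.066±0.091. In this edgeR fit none of the 9 had an unadjusted *p* below 0.05. The ratios moved too when the index was added to a linear fit of their log2 values. The log2 difference of *Apoa2* to *Apoa1* went from 0.18 to 0.16, that of *Apoc3* to *Apoa1* from 0.15 to 0.11 and that of *Apoc1* to *Apoe* from 0.12 to 0.077. That of *Apoa1* to *Apob* turned from 0.023 to −0.11, and that of *Apoa4* to *Apoa1* went from −0.0023 to −0.037. What set the index in each mouse was not tested.

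Genes that lie side by side were compared across the 14 mice in 4 pairs. *Apoe* and *Apoc1*, 3449 bases apart on chromosome 7, had *r*=0.891 and rho=0.807 (permutation *p*=3e-05 and 0.00085, adjusted over the 4 pairs 0.00012 and 0.0034), with *r*=0.973 within vehicle-treated and 0.870 within indole-treated mice and 0.828 without G5 and G6. *Apoc3* and *Apoa4* had *r*=0.684 and rho=0.701 (permutation *p*=0.00738 and 0.00676, adjusted 0.0148 and 0.0135), and 0.621 without G4 and G5. *Apoa1* and *Apoc3* had *r*=0.543 and rho=0.635 (permutation *p*=0.0443 and 0.0172, adjusted 0.0591 and 0.0229), and 0.585 without G3 and G10. *Apoa4* and *Apoa5* had *r*=0.221 and rho=0.402 (permutation *p*=0.454 and 0.156), and 0.107 without G6 and G7.

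Each of these 4 correlations was lower after the length index was removed. Over all 36 pairs of the 9 members the median *r* was 0.564, from −0.744 (*Apob* and *Apoc1*) to 0.974 (*Apoc1* and *Apoc3*), and after a linear regression on the index it was 0.196. *Apoe* and *Apoc1* went from 0.891 to 0.492, *Apoc3* and *Apoa4* from 0.684 to −0.041, and *Apoa1* and *Apoc3* from 0.543 to −0.318. The highest values that remained were 0.787 for *Apoc1* and *Apoc3*, 0.734 for *Apoa2* and *Apoc1*, and 0.694 for *Apoa2* and *Apoc3*, genes on 3 different chromosomes.

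**Figure D5:**
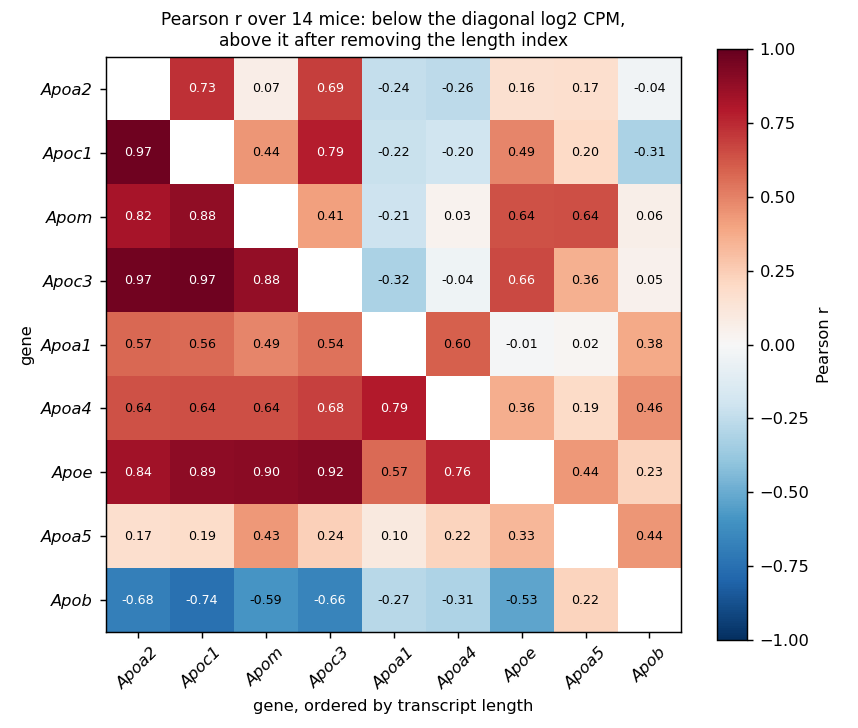
Pearson *r* between pairs of members over 14 mice, with genes ordered by gene length in exon bases. Cells below the diagonal use log2 CPM and cells above it use what remained after regression on the length index. The dark block of the short genes (0.97 between *Apoa2*, *Apoc1* and *Apoc3*) pales above the diagonal (0.69 to 0.79), and the row of *Apob* is negative except with *Apoa5*.

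The wider lipoprotein system was described by 6 lists of genes, in which 107 genes were tested. Of these, 6 had an unadjusted *p* below 0.05, all lower with indole, and 0 had an adjusted *p* below 0.05 (edgeR). The 6 are 5.61% of those tested, beside 3.81% of all genes. The split by direction among all genes with an unadjusted *p* below 0.05 is not given here. Among 15 other apolipoproteins tested of 20 listed, with a median log2 fold change of −0.037, 2 passed the unadjusted threshold. These were *Saa1* (−2.82±1.05, edgeR unadjusted *p*=0.0194, adjusted *p*=0.998) and *Saa2* (−3.09±1.11, unadjusted *p*=0.0164, adjusted *p*=0.998), acute-phase proteins that associate with HDL. *Saa1* averaged 403±744 CPM in vehicle-treated and 57.1±33.1 CPM in indole-treated mice, and its exact permutation *p* was 0.237, while that of *Saa2* was 0.195. The most abundant of this list, *Apoh*, was at 3524±490 and 3785±451 CPM.

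None of the genes that assemble VLDL passed the threshold. The list of assembly and editing had 20 genes tested of 21 (11 higher and 9 lower, median 0.010), with its most abundant member *P4hb*, the smaller subunit of the lipid-loading complex with MTP, at 2088±267 and 2077±283 CPM. The 11 genes of HDL formation and remodelling (median 0.019) likewise had 0 below the threshold, and *Pon1*, the HDL-bound paraoxonase, was the most abundant at 1062±155 and 1152±113 CPM.

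Uptake and lipolysis genes each gave 1 gene below the unadjusted threshold. Of 16 receptor and clearance genes tested of 17 (median −0.052), *Scarb1* (8500 bases), the HDL receptor, went from 185±11.9 to 159.9±21.5 CPM (log2 fold change −0.21±0.082, edgeR unadjusted *p*=0.0202, adjusted *p*=0.998). *Lrp1*, the most abundant receptor, was at 549±63.6 and 522±60.7 CPM. Of the 10 lipases and regulators (median 0.015), *Pnpla2*, the triacylglycerol lipase of lipid droplets, went from 77.2±4.97 to 68.9±7.50 CPM (−0.17±0.074, edgeR unadjusted *p*=0.0364, adjusted *p*=0.998).

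Of 36 transcription factors listed, 35 were tested, with 11 estimated higher and 24 lower (median −0.061). Over all genes tested, 51.3% were estimated higher. Among abundant genes other than members (mean of at least 100 CPM), 60.9% were higher at 2000 to under 5000 bases. At 5000 bases or more, 40.6% were. Many of the listed factors are long genes, such as *Rora* (13071 bases) and *Rxra* (6303 bases), and a background matched for length was not computed. *Hnf4a*, a nuclear receptor that drives many apolipoprotein promoters, was the most abundant at 477±40.1 and 453±26.6 CPM. *Nr2f2* (8625 bases, −0.19±0.082, edgeR unadjusted *p*=0.0295) and *Foxa3* (2037 bases, −0.43±0.18, edgeR unadjusted *p*=0.0265) were below the unadjusted threshold, and both had an adjusted *p* of 0.998. The exact permutation *p* was 0.0268 for *Nr2f2* and 0.0670 for *Foxa3*. The estimates of all these lists are given without the length index in the fit. Within 20 kb of the members, 20 genes that were not members were tested, of which 11 were estimated higher and 9 lower. Of these, *Sik3*, a kinase gene beside *Apoa1*, had an unadjusted *p* of 0.0483 (edgeR, log2 fold change −0.17±0.083, adjusted *p*=0.998), and the others were above 0.05. That is 1 of the 20, beside 3.81% of all genes tested.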

How the data were processed

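RNA-seq reads of 14 livers were aligned by the authors to GRCm38 with HISAT2, per the labels, and the authors deposited raw read counts per gene; the counting tool, its rule for reads in overlapping genes and its strand setting are not given in the sources used here. The deposited table also holds gene lengths, from which FPKM were computed. All 14 count columns were matched to a mouse by name (0 were unmatched). The counts were tested with edgeR 4.0.16 (R 4.3.3, limma 3.58.1): genes were kept by filterByExpr, scaled by TMM and fitted with a robust quasi-likelihood model of group, with Benjamini-Hochberg adjustment over the 12653 genes kept. The procedure was tested on simulated data. CPM are TMM-scaled, and log2 CPM used a prior count of 2. Single values and within-mouse ratios were compared by exact two-sided permutation over 3432 relabellings, for which the smallest *p* is 0.000583. Correlations used 100000 permutations.

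The members and the gene lists were chosen with earlier results of these data known. Genes named beside the members were, by rule, the most abundant gene of each list and those with an unadjusted *p* below 0.05, tested neighbours within 20 kb (summarised by count, with *Sik3* and *Apoc4* named), and the 5 genes most correlated with the most variable tested member. The most abundant gene of 1 list is not reported here. Alternatives were DESeq2 1.42.0, voom, other scalings and filters, 1 surrogate variable (sva 3.50.0) and leaving out each mouse. The length index, and leaving out G8 and G11 together, were chosen after seeing the data. Exon sharing was computed from GENCODE M21, which held 55141 of the 55487 genes of the table, 99.0% of them at the same length. The ratio of *Apoc3* to *Apoc2* and the correlation of *Apoc1* with *Apoc2* were not computed because *Apoc2* held 0 to 10 reads per mouse. The labels give each mouse a name of its own and no batch. The depth sets only the counting error, and the spread between mice sets the intervals.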

Additional observations from a re-analysis of the deposited data

Results flagged for a closer look

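The 34 groups of 7 values checked (CPM of the members, their 5 ratios, their share of reads and the length index in each treatment group) included 2 in which 1 mouse stood far from the others by Dixon's criterion, and chance flags about 1 in 20. In the vehicle group, G1 had the highest *Apoc2* value, with a gap of 0.628 of the group's range. That gap rests on 10 reads in G1 against 1 to 4 in the other vehicle-treated mice. In the indole group, G5 had the highest *Apom* value, with a gap of 0.610 of the range (384 CPM against a group median of 283 CPM). G5 also had the lowest length index (−0.498) of the 14 mice and the highest summed red blood cell markers (1092 CPM). Indole-treated mouse G14 was close to it in these markers (1046 CPM), with *Apom* at the group median. The part of the index and of these markers in the *Apom* value of G5 was not tested.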

How the results depend on the processing

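Of 234 alternative estimates of log2 fold change for the tested members, 3 had an unadjusted *p* below 0.05, all for *Apoa2* by edgeR. They were 0.14 (adjusted *p* above 0.05, unadjusted 0.0286) with 1 surrogate variable, 0.20 (unadjusted 0.0394) without G2 and 0.22 (unadjusted 0.0333) without G6. The number of members below 0.05 was thus 1 with the surrogate variable and 0 to 1 when each mouse was left out. With no filter on low counts, 1336 genes were below 0.05 in place of 482. At most 1 gene had an adjusted *p* below 0.05 (DESeq2 on the same genes). The near-zero estimate of *Apoa4* turned positive with DESeq2 on the same genes (0.0054) or every gene with a read (0.0042), voom (0.032), RLE (0.0054) or upper quartile scaling (0.0021), a filter at a mean of 10 counts (0.0024) and totals without the members (0.0019). *Apoe* was −0.010 with the surrogate variable. *Apoa5* was 0.031 without G8 and G11. With the length index in the fit, *Apob* was 0.027, *Apoe* −0.053 and *Apom* −0.038, while *Apoa4* was −0.11, *Apoa1* −0.083 and *Apoa5* −0.066. Leaving out each mouse gave −0.052 to 0.053 for *Apoa1*, 0.12 to 0.22 for *Apoa2*, 0.074 to 0.197 for *Apoc1*, 0.074 to 0.193 for *Apoc3*, −0.072 to 0.053 for *Apoa4*, −0.089 to 0.022 for *Apoa5*, −0.054 to 0.013 for *Apob*, −0.021 to 0.065 for *Apoe* and −0.016 to 0.098 for *Apom*. The log2 differences in ratio ran from −0.040 to 0.075 for *Apoa1* to *Apob*, 0.14 to 0.22 for *Apoa2* to *Apoa1*, −0.048 to 0.044 for *Apoa4* to *Apoa1*, 0.11 to 0.21 for *Apoc3* to *Apoa1* and 0.094 to 0.15 for *Apoc1* to *Apoe*. Within groups, *r* was 0.744 (vehicle) and 0.443 (indole) for *Apoa1* and *Apoc3*, and 0.743 in both for *Apoc3* and *Apoa4*, with 7 mice each and no permutation *p* below 0.05. Apart from the fewer mice of the last 2, the cause of these changes was not tested. No paired analysis was possible because every mouse has a label of its own. The 9 members tested held 4264 or more reads per mouse, and *Apoc2* held 0 to 10.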

Other observations

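Antisense genes overlap 2 of the members. *Gm47528* and *Gm10680* lie opposite 69.8% of the exon bases of *Apoa4*, and *Gm47544* lies opposite 20.8% of those of *Apoa5*. In indole-treated mouse G3, reads of *Gm10680* came to 6.49% of those of *Apoa4*, against 2.01% to 3.26% in the other 13 mice. G3 had the lowest *Apoa4* value (876 CPM) and the most genes detected (17901). Vehicle-treated mouse G4 had nearly the same *Apoa4* value (886 CPM), with *Gm10680* at 2.71%. The share of *Gm47528* in G3 was 0.947%, against 0.178% to 0.333% elsewhere, and that of *Gm47544*, relative to *Apoa5*, was 2.27% against 0.876% to 1.23%. Whether the counting used strand is not stated, so antisense and sense reads cannot be told apart here.

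RefSeq promoters (GRCm38.p6) were found for 8 of the 10 members, as 12 entries of 250 bases before a start. The TATA letters TATAAA, searched on both strands, were in 5 of the 12 entries (*Apoa2*, *Apoa5*, *Apob* and *Apoe*) and in 12.4% of 32851 promoters in all. The entries of *Apoa5* overlap and hold the same match, which is thus counted more than once. The entry of *Apoe* with the match (chr7:19698622-19698871) lies inside the gene, and the entry upstream of the gene had none. CAAAGTCCA, a core that HNF4A binds, was in 0 of the 12 (0.384% of all), and GGTCANAGG, a direct repeat spaced by 1 base, was in 0 (1.43% of all). A match is a description of the letters. The 80 bases before a RefSeq start are shown for *Apoa5* (chr9:46268528-46268607, plus strand) and *Apob* (chr12:7977597-7977676, plus strand). In these members the match lay closest to a start. These starts differ from the gene starts given above: the *Apob* window runs past 7977648 into the gene, and the *Apoa5* window ends before 46268633. TATAAA is in capitals.
Apoa5: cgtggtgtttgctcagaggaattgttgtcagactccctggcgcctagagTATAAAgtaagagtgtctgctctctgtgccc
Apob: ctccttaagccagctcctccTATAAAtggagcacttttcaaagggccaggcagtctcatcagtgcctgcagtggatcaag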
